A study of Mus musculus with 8 samples.

Results

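The CXC chemokines Cxcl1, Cxcl2, Cxcl9, Cxcl10, Cxcl12, Cxcl13, Cxcl14 and Cxcl16 and the chemokine receptor Cxcr4 were followed in mouse epididymal fat, a visceral depot that lies along the epididymis. They were taken as the probe sets whose only gene symbol in the array's annotation is 1 of these 9 names, which gave 17 of the 45101 probe sets. All 17 probe sets and all 9 genes were bright enough to be tested, among 11232 genes in all. Each of the 8 arrays held RNA from 1 male C57BL/6J mouse, bought at 6 weeks of age. The mice given telmisartan (HFD+Tel, n = 2) and those given candesartan (HFD+Can, n = 2) ate a high-fat diet with 30% of calories from fat for 24 weeks and then drank about 3 mg/kg/day of the drug for 5 weeks. The mice on the high-fat diet without a drug (HFD, n = 2) and those on chow with 10% of calories from fat (chow, n = 2) completed the design. Their diets too are given as lasting 24 weeks. The weeks given do not settle whether the 4 groups were of the same age when the fat was taken. A difference in age or time on the diet could not be told apart from the drug. Telmisartan and candesartan block the angiotensin II type 1 receptor, and telmisartan is also known as a partial agonist of PPARγ.

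Chemokines are small secreted proteins that set up gradients along which leukocytes move, and each acts through a receptor on the cell that moves. CXCL1 and CXCL2 attract neutrophils through CXCR2, CXCL9 and CXCL10 attract T and NK cells through CXCR3, CXCL13 attracts B cells through CXCR5, and CXCL16 acts through CXCR6. CXCL12, made by stromal and endothelial cells, holds haematopoietic cells in tissue through CXCR4. In obese fat, chemokines are known as part of the traffic of macrophages and lymphocytes into the tissue.

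The values are signal intensities on a linear scale, scaled so that all arrays share 1 trimmed mean, and levels are compared only within a probe set. Of the 4 pairs of arrays, those of HFD+Tel differed most, with an SD of 0.484 for the log2 difference between the 2 arrays over all genes tested, against 0.314 for HFD+Can, 0.273 for HFD and 0.445 for chow. Markers of mesothelium, the layer that covers the fat pad, set HFD+Tel array 1 apart, while array 2 lay within the range of the other groups. The summed signal over 9 markers was 848 and 2705 on the HFD+Tel arrays and 1913 and 3483 on the HFD+Can arrays. It was 2618 and 3564 on the HFD arrays and 3856 and 2907 on the chow arrays. Results that rest on 1 of the HFD+Tel arrays are therefore given array by array. The adipocyte markers Adipoq, Fabp4, Cidec, Slc2a4, Lep and Pparg were all bright enough to be tested, while the epididymis and testis markers with a probe set (5 of 6) were all too dim. Nothing in the labels pairs mice across groups. The p-values rest on the spread between mice within groups, pooled over all 8 arrays and moderated across genes. With 2 arrays a group, an exact permutation test cannot go below 0.333, so the tests are those of limma across all genes.

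HFD set against chow addresses the effect of the diet on the chemokines. Cxcl12, Cxcl14 and Cxcl16 rose, by 2.63-fold, 3.92-fold and 2.32-fold. All 9 fold changes were positive, with a median log2 fold change of 1.02, against −0.01 over all genes tested. limma called 3 of the 9 genes higher and 0 lower at an adjusted p under 0.05, where 5.15% of all genes were called higher and 2.95% lower. At an unadjusted p under 0.05 there were 6 of the 9, where 24.1% of all genes passed. Both HFD arrays lay above both chow arrays for 8 of the 9 genes, all but Cxcl9. Of all genes, the arrays did not overlap for 58.1%, with 27.8% higher and 30.3% lower in HFD. In RNA from whole fat, a change in the number of cells of a type and a change in RNA per cell cannot be told apart. Without the filter on dim probe sets 0 of the 9 genes were called, when 174 of all genes were called in place of 909.

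**Figure D1:**
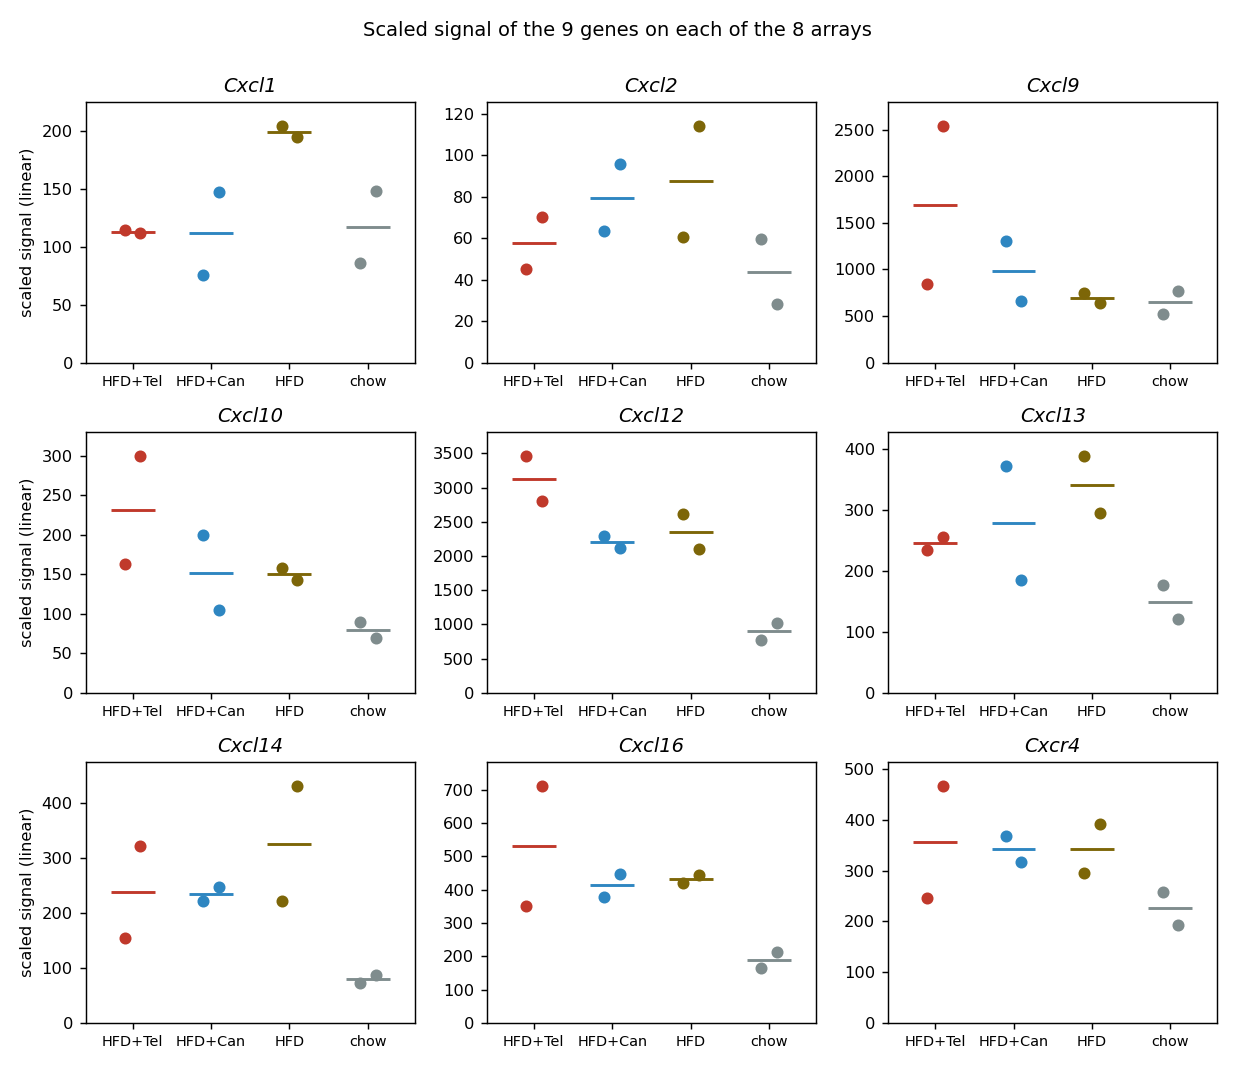
Scaled signal (linear axis from 0) of the brightest probe set of each of the 9 genes, with a point for each array and a bar at the mean of the 2 arrays of a group. For Cxcl12, Cxcl14 and Cxcl16 all 6 arrays from mice on the high-fat diet lay above both chow arrays, and for Cxcl9 the highest point, 2538, was HFD+Tel array 2.

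Cxcl12 encodes SDF-1, the stromal ligand of CXCR4 and of the scavenging receptor ACKR3. The brightest of its 3 probe sets had a signal of 3461 and 2799 on the HFD+Tel arrays, 2295 and 2121 on the HFD+Can arrays, 2614 and 2100.4 on the HFD arrays and 775 and 1020.5 on the chow arrays. The 6 arrays from mice on the high-fat diet thus lay above both chow arrays, and the HFD+Tel arrays were the highest. HFD averaged 2357 ± 364 and chow 898 ± 174 (SD, n = 2 each), a log2 fold change of 1.40 (95% CI 0.99 to 1.81, adjusted p 0.00330). This was the call with the smallest p among the 9 genes, and it was kept whichever of the 8 arrays was left out (adjusted p 0.00127 to 0.0455).

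The other Cxcl12 probe sets did not show this rise. The second read 1201 and 1189.6 on the HFD+Tel arrays, 897 and 928 on the HFD+Can arrays, 1075 and 1085 on the HFD arrays and 1032 and 918 on the chow arrays. Its HFD and chow arrays did not overlap, but its log2 fold change for HFD against chow was 0.15 (95% CI −0.12 to 0.42), with an adjusted p of 0.540 in a fit of each probe set on its own. The third probe set was dim, between 31.0 and 69.1 on all 8 arrays, and stood at −0.09 (95% CI −0.88 to 0.71, adjusted p 0.925). Cxcl12 is known to give several splice forms, and which of them each probe set reads was not examined here. The rise is thus a result of 1 probe set, and the mean over the probe sets gave 0.49 (adjusted p 0.0762).

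**Figure D2:**
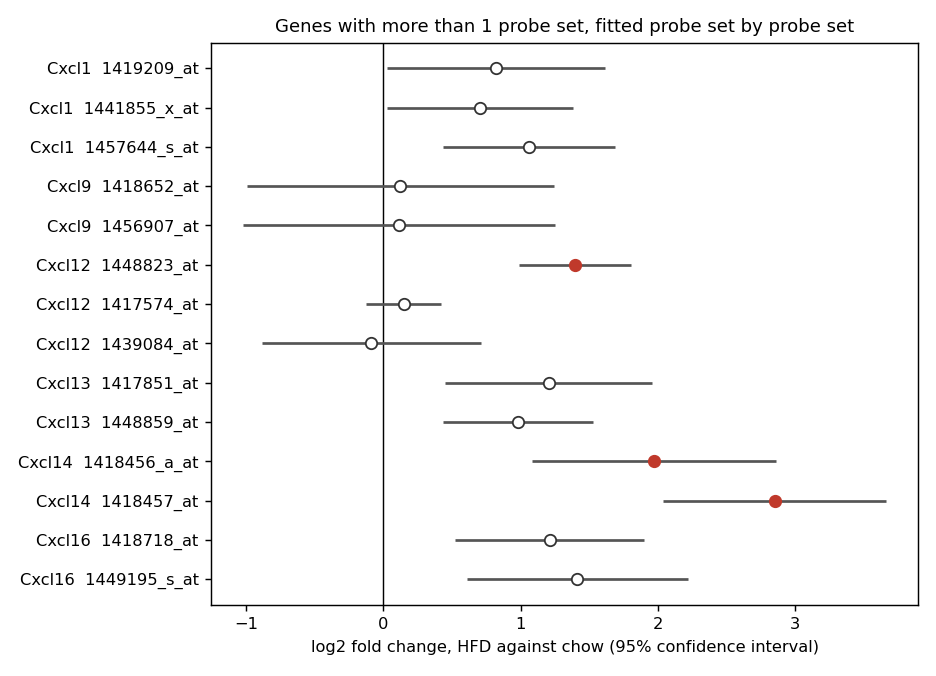
log2 fold change of HFD against chow with its 95% confidence interval for each probe set of the 6 genes that have more than 1, from a fit over all probe sets past the filter, with filled points at an adjusted p under 0.05. The 3 Cxcl12 probe sets stand at 1.40, 0.15 and −0.09, while those of Cxcl1, Cxcl9, Cxcl13, Cxcl14 and Cxcl16 lie on the same side of 0 as each other.

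Cxcl14 encodes a chemokine made constitutively by epithelial and stromal cells, whose receptor is less settled than those of its relatives. Its signal was 154 and 322 on the HFD+Tel arrays, 222 and 248 on the HFD+Can arrays, 222 and 431 on the HFD arrays and 72.0 and 86.4 on the chow arrays. The mice of the HFD+Tel and HFD groups differed widely within each pair, yet none came down to the chow level. The rise with HFD was 1.97 on the log2 scale (95% CI 1.10 to 2.85, adjusted p 0.0192), the largest of the 9. The other Cxcl14 probe set read 138 and 175 on the HFD arrays and 20.8 and 22.2 on the chow arrays, a log2 fold change of 2.85 (95% CI 2.04 to 3.66, adjusted p 0.00416 in the fit of each probe set on its own). The call of the brightest probe set ended when either chow array (adjusted p 0.0844 without array 1 and 0.0532 without array 2) or HFD array 2 (0.151) was left out.

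The Cxcl14 promoter (RefSeq, GRCm38.p6, minus strand, chr13:56296552-56296801) is shown because Cxcl14 had the largest rise and is the only one of the 8 genes with a window that matches TTCNNNGAA, a palindromic STAT motif held by 7.02% of all 32851 windows of 250 bases. Capitals mark that match (191 to 183 bases before the start) and then a match to GAAANNGAA, the core of the interferon response element (172 to 164 bases before it). Of all windows 7.13% hold GAAANNGAA, which was shortened after an earlier search, so this share is a description and not a test. The windows of Cxcl12, Cxcl13 and Cxcr4 hold no match to these motifs or to the NF-κB core GGGANNTTC.
Cxcl14: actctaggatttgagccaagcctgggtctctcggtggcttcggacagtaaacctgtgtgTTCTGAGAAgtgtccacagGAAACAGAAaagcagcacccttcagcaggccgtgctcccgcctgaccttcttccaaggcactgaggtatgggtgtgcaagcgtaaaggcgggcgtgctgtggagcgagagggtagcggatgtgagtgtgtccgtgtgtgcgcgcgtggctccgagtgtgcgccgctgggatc

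Markers of stromal and endothelial cells, which make CXCL12 in many tissues, were read beside the brightest Cxcl12 probe set. The stromal sum was above chow in HFD and HFD+Can, as that probe set was, but overlapped chow in HFD+Tel. The second Cxcl12 probe set was not above chow in HFD+Can, with 897 and 928 against 1032 and 918. The endothelial sum was below chow in every group on the high-fat diet. All 8 listed stromal markers were tested, and their summed signal was 22985 to 24941 in HFD+Tel, where Cxcl12 was highest, 28624 to 30577 in HFD+Can, 28426 to 30444 in HFD and 23398 to 23574 in chow. With HFD 2 of the 8 rose, Lum (1.21, adjusted p 0.00679) and Col1a1 (0.76, adjusted p 0.0491), where 5.15% of all genes were called higher. Pdgfra (0.42, adjusted p 0.222) was higher without overlap, Pdgfrb, Dcn, Pi16 and Dpt overlapped chow (0.10 to 0.25), and Cd34 was lower without overlap (−0.62, adjusted p 0.0712). The 7 endothelial markers were all tested and all lower on both HFD arrays than on both chow arrays, with 4 called lower and a median log2 fold change of −0.66. Of all genes 30.3% were lower without overlap and 2.95% were called lower. The endothelial sum was 3331 to 3745 in HFD+Tel, 3174 to 3442 in HFD+Can, 3580.1 to 3779 in HFD and 5162 to 6305 in chow. The part of these cells in the Cxcl12 and Cxcl14 results was not tested.

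Cxcl16 encodes a chemokine held on the cell surface by a membrane stalk, known also as a scavenger receptor for oxidized lipid, and shed by ADAM10. Its signal was 352 and 711 on the HFD+Tel arrays, 378 and 447 on the HFD+Can arrays, 420 and 444 on the HFD arrays and 163 and 212 on the chow arrays. The HFD pair was tight, at 432 ± 16.8 (SD, n = 2), against 188 ± 34.5 for chow, while the HFD+Tel arrays bracketed all the others on the high-fat diet. Cxcl16 rose by 1.21 on the log2 scale with HFD (95% CI 0.54 to 1.89, adjusted p 0.0432). In the fit of each probe set on its own the other Cxcl16 probe set gave 1.41 (95% CI 0.61 to 2.22, adjusted p 0.0595). The brightest had an adjusted p of 0.0587 in that fit, so neither passed there. Put in place of the brightest in the fit over genes, the other had an adjusted p of 0.0461.

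The Cxcl16 call sat close to the threshold. It ended when any array of HFD (adjusted p 0.192 and 0.231), chow (0.174 and 0.0705) or HFD+Can (0.0799 for either array) was left out, with the direction kept. Macrophage markers moved in the same samples: all 9 listed were tested, 6 rose and 1 (Cd163) fell with HFD, where 8.09% of all genes were called. Their summed signal was 33787 and 47002 on the HFD+Tel arrays, 35870.4 and 41228 on the HFD+Can arrays, 39071 and 39562 on the HFD arrays and 20061 and 22498.5 on the chow arrays. The HFD+Tel array with the higher Cxcl16 signal was also the one with the higher macrophage sum, and the part of macrophage content in the Cxcl16 result was not tested.

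Cxcl1 and Cxcl2 encode the neutrophil attractants KC and MIP-2 and lie next to each other on chromosome 5. Their promoters are shown because they share a run of motif matches. In the 250 bases before the gene start (RefSeq, GRCm38.p6, plus strand, chr5:90890995-90891244 and chr5:90903649-90903898), capitals mark matches to GGGANNTTC, the core of the NF-κB site, searched on both strands. In each promoter a match on 1 strand overlaps a match on the other, between 71 and 61 bases before the start for Cxcl1 and between 97 and 87 bases for Cxcl2. Of all 32851 promoter windows of that length in the table, 3.23% hold a match. GGGANNTTC was shortened after an earlier search, so this share is a description and not a test.
Cxcl1: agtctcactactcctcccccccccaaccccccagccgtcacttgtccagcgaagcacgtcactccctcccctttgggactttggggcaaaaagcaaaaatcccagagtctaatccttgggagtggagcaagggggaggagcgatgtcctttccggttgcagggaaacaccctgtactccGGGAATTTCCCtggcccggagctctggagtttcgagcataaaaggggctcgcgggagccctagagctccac
Cxcl2: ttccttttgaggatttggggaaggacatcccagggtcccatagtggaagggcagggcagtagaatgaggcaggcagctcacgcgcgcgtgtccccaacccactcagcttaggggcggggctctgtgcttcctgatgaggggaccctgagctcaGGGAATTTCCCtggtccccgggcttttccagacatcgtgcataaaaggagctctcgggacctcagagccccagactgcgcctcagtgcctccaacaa

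The Cxcl1 signal was 114 and 112 on the HFD+Tel arrays, 75.8 and 147 on the HFD+Can arrays, 204 and 194 on the HFD arrays and 85.8 and 148 on the chow arrays. Both HFD arrays were above the other 6, which overlapped each other. The log2 fold change of HFD against chow was 0.82 (95% CI 0.04 to 1.61), short of the threshold at an adjusted p of 0.189, and was 0.43 without chow array 1 and 1.22 without chow array 2. The other Cxcl1 probe sets gave 0.70 and 1.06 (adjusted p 0.229 and 0.0669). The names of both carry a suffix for probes that may also bind other transcripts.

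The Cxcl2 signal was 45.0 and 70.3 on the HFD+Tel arrays, 63.3 and 95.7 on the HFD+Can arrays, 60.8 and 114 on the HFD arrays and 59.5 and 28.2 on the chow arrays. Cxcl2 was the dimmest of the 9 genes, brighter than only 7.46% of the genes tested, and its HFD and chow arrays were parted by 60.8 against 59.5. Its log2 fold change with HFD was 1.02 (95% CI −0.04 to 2.09, adjusted p 0.222), and ran from 0.49 without chow array 2 to 1.56 without chow array 1. Of 9 neutrophil markers, 7 had a probe set and 3 were bright enough to be tested, S100a8, S100a9 and Csf3r. With HFD limma called 0 of the 3, with 1 at an unadjusted p under 0.05, where 24.1% of all genes passed. Mpo, Elane, Camp and Ngp were too dim, as was Cxcr2, the receptor of both chemokines, which read between 2.42 and 15.0. The summed signal of the 7 markers was 1999 to 2066 in HFD+Tel, 1450.5 to 1815 in HFD+Can, 1449 to 1612 in HFD and 766 to 1452.5 in chow. S100a8 made up most of each sum, with 1875 and 1750 on the HFD+Tel arrays and 1443 and 1221 on the HFD arrays. S100a9 was lower on the HFD+Tel arrays (38.9 and 27.8) than on the HFD arrays (45.8 and 59.4), and Csf3r overlapped.

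Cxcl9 and Cxcl10 encode the interferon-induced ligands of CXCR3. Their promoters are shown because the genes are classical interferon targets, with a Pearson r of 0.81 between them over the 8 arrays. Such an r was not particular to this pair, as Cxcl10 with Cxcl16 also had 0.81. The windows (RefSeq, GRCm38.p6, minus strand, chr5:92328080-92328329 and chr5:92348890-92349139) are written in the direction of transcription. Capitals mark, in each window from left to right, a match to the interferon response element core GAAANNGAA and a match to GGGANNTTC, the second of these on the opposite strand for Cxcl9. The matches begin 175 and 154 bases before the start for Cxcl9 and 213 and 159 bases before it for Cxcl10. Of all windows, 7.13% hold GAAANNGAA on either strand. The STAT motif TTCNNNGAA, in 7.02% of all windows, was not matched in either of these. GAAANNGAA and GGGANNTTC were each shortened after an earlier search, in which the Cxcl9 window held no match. The Cxcl9 matches thus follow from a choice made after that search, and the shares of all windows cannot test them.
Cxcl9: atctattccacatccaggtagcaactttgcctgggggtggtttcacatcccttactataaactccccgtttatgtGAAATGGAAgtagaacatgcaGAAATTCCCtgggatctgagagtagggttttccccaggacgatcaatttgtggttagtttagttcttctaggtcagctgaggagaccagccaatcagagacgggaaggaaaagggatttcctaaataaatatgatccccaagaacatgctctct
Cxcl10: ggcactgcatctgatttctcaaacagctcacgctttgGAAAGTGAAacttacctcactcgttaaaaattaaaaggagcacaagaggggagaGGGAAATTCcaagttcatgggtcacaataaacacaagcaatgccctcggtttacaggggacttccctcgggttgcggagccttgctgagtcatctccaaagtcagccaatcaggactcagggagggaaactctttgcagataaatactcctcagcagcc

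The Cxcl9 signal was 848 and 2538 on the HFD+Tel arrays, 1309 and 662 on the HFD+Can arrays, 752 and 642 on the HFD arrays and 525 and 774 on the chow arrays. HFD and chow overlapped, and HFD+Tel array 2 and HFD+Can array 1 stood above the rest. The log2 fold change of HFD against chow was 0.12 (95% CI −0.99 to 1.24, adjusted p 0.912). The second Cxcl9 probe set repeated the pattern, with 158 and 502 on the HFD+Tel arrays, 257 and 151 on the HFD+Can arrays, 147 and 122 on the HFD arrays and 102 and 149 on the chow arrays.

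The Cxcl10 signal was 163 and 299 on the HFD+Tel arrays, 199 and 104 on the HFD+Can arrays, 158 and 142 on the HFD arrays and 89.1 and 69.7 on the chow arrays. As for Cxcl9, HFD+Tel array 2 and HFD+Can array 1 were the highest, but here all 6 arrays on the high-fat diet exceeded both chow arrays. The log2 fold change with HFD was 0.93 (95% CI 0.10 to 1.75) and did not pass, at an adjusted p of 0.161. In a fit of the HFD and chow arrays alone its adjusted p was 0.0455.

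The summed signals of T and NK cell markers, cells that bear CXCR3, and of interferon gamma axis genes were highest on the same arrays, though not every gene was. All 8 listed T and NK cell markers had a probe set, 6 were bright enough to be tested, and Cd3e and Cd4 were not. Their summed signal was 569.7 and 977 on the HFD+Tel arrays, 769 and 412 on the HFD+Can arrays, 590.3 and 498 on the HFD arrays and 303 and 443 on the chow arrays. The array of each drug group with more Cxcl9 and Cxcl10 was also the one with the larger sum, as was HFD array 1. In the chow pair array 2 had the larger sum, with more Cxcl9 but less Cxcl10 than array 1. Of the 6 tested markers 4 were higher on HFD+Tel array 2 than on array 1, not Cd8a and Klrd1, and 5 were higher on HFD+Can array 1 than on array 2, not Cd8a. The 14 interferon gamma axis genes with a probe set (of 15) summed to 7786 and 11424 on the HFD+Tel arrays, 9105 and 7584 on the HFD+Can arrays, 8181 and 7935 on the HFD arrays and 6917 and 7699 on the chow arrays. All 11 tested genes of the axis were higher on HFD+Tel array 2 than on array 1. On HFD+Can array 1 they were higher for 8 of 11, not for Ifngr2, Jak2 and Ciita, and Gbp2 alone made up 50.6% of the difference between the sums. HFD array 1 had the larger sum of its pair, but only 4 of the 11 genes were higher on it and 7 were lower. In the chow pair the larger sum was on array 2, with 8 of 11 genes higher, where Cxcl10 was lower. HFD+Tel array 2 was also the higher of its pair for 8 of 9 mesothelial and 5 of 8 stromal markers. The macrophage, B cell and endothelial sums were higher on it too, and the neutrophil and adipocyte sums were lower. The share of all genes higher on that array was not counted. The interferon gamma gene Ifng itself was too dim, between 1.15 and 11.4 on all arrays but HFD+Tel array 2, where it read 33.0. The part of lymphocyte content in the Cxcl9 and Cxcl10 values was not tested.

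**Figure D3:**
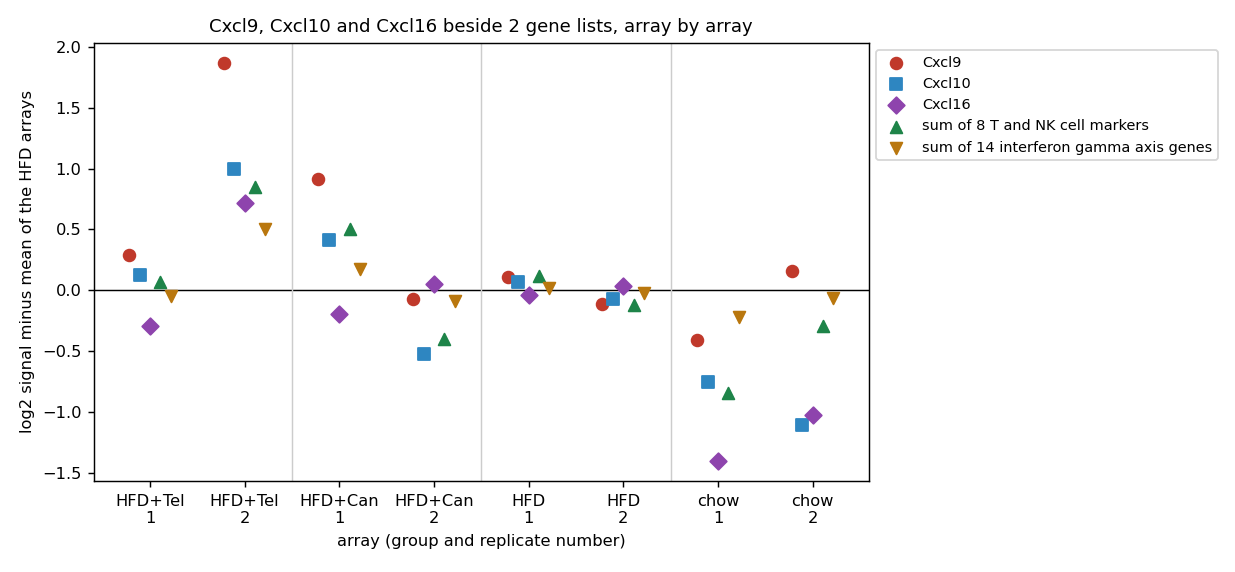
log2 signal of Cxcl9, Cxcl10 and Cxcl16 and log2 of the summed signal of 8 T and NK cell markers and 14 interferon gamma axis genes on each array, minus the mean of the 2 HFD arrays (0 on the vertical axis). On HFD+Tel array 2 Cxcl9 stood 1.87, Cxcl10 0.999 and Cxcl16 0.72 above the HFD mean, while on HFD+Tel array 1 they stood at 0.29, 0.12 and −0.29.

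Cxcl13 encodes the B cell attractant of lymphoid follicles, known in visceral fat from the lymphoid clusters of the mesenteric and gonadal pads. Its signal was 235 and 255 on the HFD+Tel arrays, 372 and 186 on the HFD+Can arrays, 389 and 295 on the HFD arrays and 178 and 121 on the chow arrays. All 6 arrays on the high-fat diet lay above both chow arrays, though HFD+Can array 2 only narrowly. With HFD the log2 fold change was 1.21 (95% CI 0.46 to 1.95) and the adjusted p 0.0577, just short of the threshold. It passed without any 1 of the 4 arrays of the drug groups (adjusted p 0.0353 to 0.0480), in a fit of HFD and chow alone (0.0291), with the mean of its probe sets (0.0485) and with the replicate number as a block (0.0204). It moved away from the threshold without HFD array 1 (0.300), HFD array 2 (0.173), chow array 1 (0.0778) or chow array 2 (0.191), with median centring (0.111) and without a filter (0.208). The second probe set gave 0.98, with an adjusted p of 0.0420 when put in place of the first and 0.0556 in the fit of each probe set on its own.

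B cell markers were also higher with HFD. Of 8 listed, 7 had a probe set and 5 were tested, all 5 of them higher on both HFD arrays than on both chow arrays, with 1 called (Cd22, 2.69, adjusted p 0.0106). Of all genes 27.8% were higher without overlap and 5.15% were called higher. Their summed signal was 447 and 979.8 on the HFD+Tel arrays, 965 and 549.5 on the HFD+Can arrays, 1141 and 729.5 on the HFD arrays and 230.3 and 309.6 on the chow arrays. The markers Cr2 and Fcer2a and the CXCL13 receptor gene Cxcr5 were too dim to be tested. In each of the 3 pairs on the high-fat diet the array with more Cxcl13 had the larger B cell sum, and in the chow pair it had the smaller. The part of B cell content in the Cxcl13 values was not tested.

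Cxcr4 encodes the CXCL12 receptor, carried by most leukocytes and by endothelial cells. Its signal was 247 and 467 on the HFD+Tel arrays, 368 and 317 on the HFD+Can arrays, 296 and 391 on the HFD arrays and 259 and 193 on the chow arrays. The HFD arrays were above those of chow, while HFD+Tel array 1 was within the chow range. The log2 fold change with HFD was 0.60 (95% CI −0.08 to 1.29, adjusted p 0.261), which did not pass, and was 0.39 without chow array 2.

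Among 17 other CXC chemokines, receptors and partner genes, 9 were bright enough to be tested. With HFD 1 rose and 1 fell (median log2 fold change 0.41), where 5.15% of all genes were called higher and 2.95% lower. Ackr3, the receptor that binds CXCL12 and removes it, fell by 0.86 on the log2 scale (95% CI −1.25 to −0.47, adjusted p 0.0210). Its signal was 1681 and 1166 on the HFD+Tel arrays, 1588 and 1475 on the HFD+Can arrays, 1244 and 1261 on the HFD arrays and 2378 and 2171 on the chow arrays, so that all arrays on the high-fat diet were below both of chow. Pf4, a platelet and macrophage chemokine, rose by 0.71 (95% CI 0.37 to 1.06, adjusted p 0.0272). Cxcl3, Cxcl5, Cxcl11, Cxcl15, Cxcl17, Cxcr2 and Cxcr5 were too dim, and Cxcr1 was not analysed here.

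Genes of 4 further lists were read against the 8.09% of all genes called in either direction. Of 13 NF-κB pathway genes tested, 1 rose with HFD and 0 fell (median 0.26): Tnfaip3, the feedback inhibitor A20, at 0.78 (adjusted p 0.0431). Of 11 interferon gamma axis genes tested, 2 rose and 0 fell (median 0.23), the transcription factor Irf8 at 1.20 (adjusted p 0.0202) and the receptor chain Ifngr2 at 0.61 (0.0385). Of 8 genes of CXCL16 and CXCL12 processing and hypoxia, 4 rose and 1 fell (median 0.26). The risers were the proteases Mmp2 (1.38, adjusted p 0.00361) and Adam17 (0.98, 0.0491), the integrin chain Itga4 (1.22, 0.0328) and Hif1a (0.55, 0.0285), and the angiogenic factor Vegfa fell by 1.12 (0.0146). Of 6 genes of the lymphoid chemokine axis limma called 0 (median 0.43), with 1 at an unadjusted p under 0.05, where 24.1% of all genes passed. There Vcam1 at 0.88 (adjusted p 0.154) and the lymphotoxin Ltb at 0.995 (0.301) had the smallest p.

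The comparison of HFD+Tel with HFD asks whether telmisartan moved these genes in obese fat. limma called 0 of the 9 genes and 0% of all genes, with 1 of the 9 and 6.20% of all genes at an unadjusted p under 0.05. The smallest p was that of Cxcl1, with both HFD+Tel arrays below both HFD arrays and a log2 fold change of −0.82 (95% CI −1.60 to −0.03, adjusted p 0.766). Its other probe sets gave −0.24, with overlapping arrays, and −0.82, without overlap. Cxcl12 was 0.41 (95% CI −0.00085 to 0.82, adjusted p 0.766), with both HFD+Tel arrays above both HFD arrays. Cxcl9 had the largest estimate, 1.08 (95% CI −0.03 to 2.19, adjusted p 0.766), and was 0.29 without HFD+Tel array 2 and 1.87 without array 1.

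Markers of other cells differed between the same arrays. All 9 mesothelial markers had a negative log2 fold change for HFD+Tel against HFD (median −1.01, 1 without overlap). All 8 stromal markers did too (median −0.30, 7 without overlap), among them Pdgfra at −0.95 (unadjusted p 0.000887, adjusted p 0.766), and 0 of either list were called. Of all genes 19.5% were lower without overlap. The part of these cells in the telmisartan values was not tested.

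The remaining genes did not pass either. The estimate was 0.56 for Cxcl10 (95% CI −0.26 to 1.39), −0.57 for Cxcl2 (−1.63 to 0.50), −0.47 for Cxcl13 (−1.21 to 0.28) and −0.48 for Cxcl14 (−1.35 to 0.40), with adjusted p of 0.768 to 0.792. For Cxcl10 the estimate was 0.12 without HFD+Tel array 2 and 0.999 without array 1. Cxcl16 was 0.21 (95% CI −0.47 to 0.89), but −0.29 without HFD+Tel array 2. Cxcr4 was −0.0039 (95% CI −0.69 to 0.68), and its sign turned to 0.27 with median centring. The arrays of HFD+Tel and HFD did not overlap for 5 of the 9 genes, 3 of them higher with telmisartan (Cxcl9, Cxcl10 and Cxcl12) and 2 lower (Cxcl1 and Cxcl13). Of all genes 37.9% did not overlap, 18.5% higher and 19.5% lower with telmisartan. Of the 9 intervals 8 hold 0, and a p above the threshold does not show that telmisartan left a gene as it was.

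The comparison of HFD+Can with HFD asks the same of candesartan, against the same HFD arrays. limma called 0 of the 9 genes and 0% of all genes, with 1 of the 9 and 1.25% of all genes at an unadjusted p under 0.05. That gene was again Cxcl1, with both HFD+Can arrays below both HFD arrays and a log2 fold change of −0.91 (95% CI −1.70 to −0.13, adjusted p 1.0). Its other probe sets gave −0.47, with overlapping arrays, and −0.55, without overlap. The brightest was −0.44 without HFD+Can array 1 and −1.39 without array 2. A shared position of Cxcl1 below HFD in both drug groups rests on the same pair of HFD arrays and is not 2 independent results. The other 8 estimates ran from −0.40 for Cxcl14 (95% CI −1.27 to 0.48) to 0.42 for Cxcl9 (95% CI −0.69 to 1.53), and the arrays overlapped for all 8. Of all genes 33.4% did not overlap, 17.9% higher and 15.5% lower with candesartan.

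**Figure D4:**
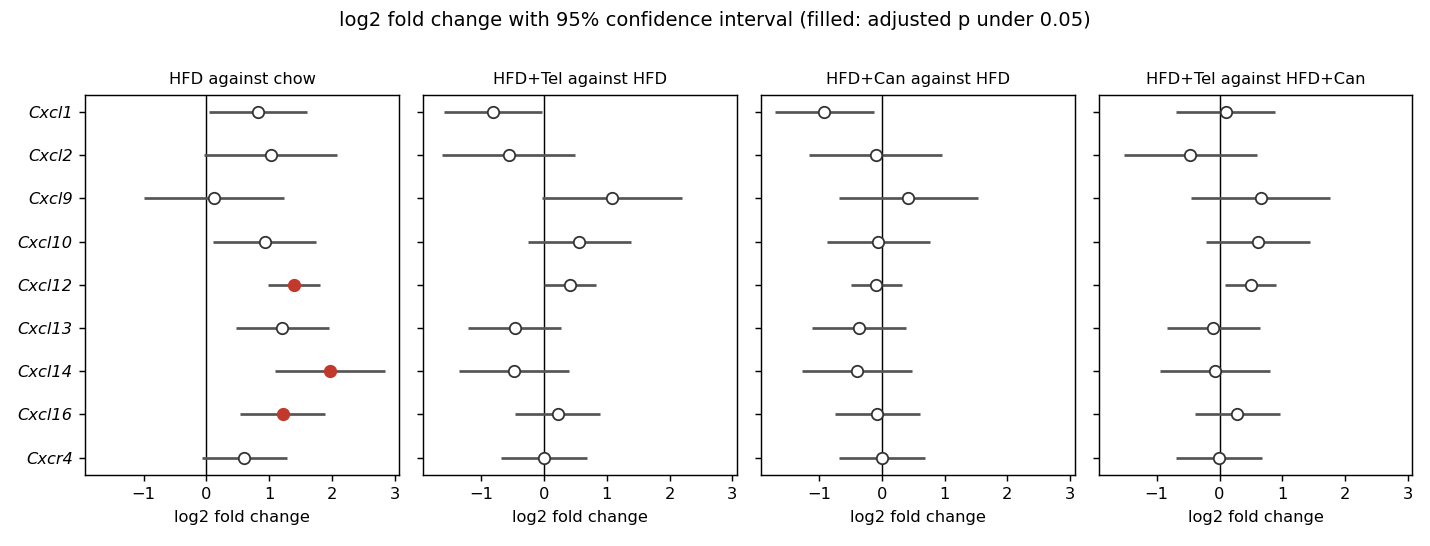
log2 fold change of the 9 genes in the 4 comparisons with its 95% confidence interval, from 1 limma fit over all 11232 genes, with filled points at an adjusted p under 0.05. The filled points are Cxcl12 (1.40), Cxcl14 (1.97) and Cxcl16 (1.21) in HFD against chow, and the drug comparisons have none.

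The comparison of HFD+Tel with HFD+Can sets the drugs side by side at the same dose and time, and tests directly whether their effects differ. limma called 0 of the 9 genes and 0% of all genes, with 1 of the 9 and 4.90% of all genes at an unadjusted p under 0.05. That gene was Cxcl12, with both HFD+Tel arrays above both HFD+Can arrays at a log2 difference of 0.50 (95% CI 0.09 to 0.91, adjusted p 0.924). Its second probe set, which did not rise with the diet, lay 0.39 higher in HFD+Tel than in HFD+Can (95% CI 0.12 to 0.66, adjusted p 0.898). Cxcl9 (0.66, 95% CI −0.46 to 1.77) and Cxcl10 (0.62, 95% CI −0.21 to 1.44) were higher on average with telmisartan, with overlapping arrays. Leaving out 1 array moved them to between −0.14 and 1.45 for Cxcl9 and between 0.15 and 1.08 for Cxcl10. Cxcl1 stood at 0.10 (95% CI −0.69 to 0.88) and Cxcr4 at −0.01 (95% CI −0.69 to 0.67), intervals that reach a 1.5-fold difference in each direction. The arrays did not overlap for 1 of the 9 genes, against 32.2% of all genes (15.6% higher and 16.6% lower with telmisartan).

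Among the 17 other CXC genes limma called 0 of the 9 tested in each drug comparison. There were 2 at an unadjusted p under 0.05 in HFD+Tel against HFD, where 6.20% of all genes passed. The other drug comparisons had 0. Cxcr3, the receptor of CXCL9 and CXCL10, had a signal of 185 and 264 on the HFD+Tel arrays, 189 and 117 on the HFD+Can arrays, 155 and 131 on the HFD arrays and 108 and 112 on the chow arrays. Its highest arrays were again HFD+Tel array 2 and HFD+Can array 1, though HFD+Can array 1 barely exceeded HFD+Tel array 1 (189 against 185). The log2 fold change of Cxcr3 was 0.63 for HFD+Tel against HFD (adjusted p 0.766) and 0.57 for HFD+Tel against HFD+Can (0.924). Dpp4, a protease that trims CXCL10 and CXCL12, was −0.62 for HFD+Tel against HFD (adjusted p 0.766). Ackr3 was 0.29 and Pf4 −0.26 for HFD+Can against HFD (adjusted p 1.0 for each).

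Of the regulator genes, limma called 0 in these comparisons as well. The share of all genes at an unadjusted p under 0.05 was 6.20% in HFD+Tel against HFD. It was 1.25% in HFD+Can against HFD and 4.90% in HFD+Tel against HFD+Can. In HFD+Tel against HFD the interferon gamma axis held 2 genes at an unadjusted p under 0.05, the interferon-induced GTPase Gbp2 at 0.69 and the checkpoint ligand Cd274 at 0.35 (adjusted p 0.766 for each). Gbp2 read 1731 and 2718 on the HFD+Tel arrays, 1917 and 1148 on the HFD+Can arrays, 1509 and 1199 on the HFD arrays and 1684 and 1652 on the chow arrays, with the same high arrays as Cxcl9 but no rise with the diet. The processing list also held 2, Dpp4 and the protease Mmp2, which is known to cleave CXCL12 (−0.56, adjusted p 0.766), and the NF-κB and lymphoid lists held 0. In HFD+Can against HFD 1 regulator was at an unadjusted p under 0.05, Cd274 at 0.48 (adjusted p 1.0). In HFD+Tel against HFD+Can there were 3, the TNF receptor gene Tnfrsf1a (0.33), Hif1a (0.30) and Mmp2 (−0.48), with an adjusted p of 0.924 each.

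The genes most like each of the 9 were those with the highest Pearson correlation of log2 signal over the 8 arrays, given as a description without a test, since the arrays share 4 groups. For Cxcl16 they were Bst1 (r = 0.996) and the complement genes C1qc (0.992) and C1qa (0.990). For Cxcl12 they were Serpinb9, Gcnt2 and Ostf1 (0.990 to 0.994), and for Cxcl14 the actin regulators Coro1c, Arpc2 and Tln1 (0.984 to 0.988). For Cxcl9 they were the immunoproteasome subunit Psmb9 (0.946), the interferon-induced GTPase Ifi47 (0.945) and the peptide transporter Tap1 (0.926). For Cxcl10 they were H2-Oa, Calhm6 and Glrx (0.976 to 0.978), and for Cxcl13 Nop56 (0.967), Ly6d (0.937) and the B cell transcription factor Spib (0.930). For Cxcl1 they were Nrap (0.952), Btg2 (0.903) and Ugcg (0.901), for Cxcl2 Clec11a, Ankrd33b and Fgf1 (0.947 to 0.957), and for Cxcr4 Ppp1r18, Klhl20 and Tmem164 (0.956 to 0.981).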

How the data were processed

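Each array (1 mouse, 1 colour) was deposited as 1 signal intensity per probe set on a linear scale. Per the series' design text the authors used the GeneChip Analysis Suite. Its version is not given in the sources used here, nor is its scaling. The largest ratio between the arrays' 2%-trimmed mean signals was 1.48, so arrays were scaled to their common mean. Scaled signals under the 20th percentile (6.69) were raised to it and log2 was taken. Probe sets at or above the 50th percentile of mean log2 signal (22519) were kept, and per gene the brightest with 1 symbol was used (11232 genes). No array of the 9 genes was at the floor. limma 3.58.1 in R 4.3.3 fitted 4 group means with moderated variances and an intensity trend, on 4 residual degrees of freedom. Tests were two-sided, with Benjamini-Hochberg adjustment over all genes, and were tested on simulated data. The number of arrays limits the precision. The labels do not say whether replicate numbers pair the mice across groups. The log2 difference of replicate 1 from 2 had r of −0.04 to 0.21 for pairs of groups, over the genes tested. Members, gene lists, motifs and tests were chosen with earlier results of these data known. The NF-κB and interferon motifs were shortened by 1 base each after a first search, in which the Cxcl9 window held no match. Named are the 9 genes, called genes of the lists (or the 2 with the smallest p), and the 3 most alike genes, clone names skipped. Signals and values of other listed genes were chosen after they were seen. The alternatives were other scalings, floors, filters, variance models, probe sets and samples, plus a replicate block, and a fit of each probe set on its own, chosen after seeing the data.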

Additional observations from a re-analysis of the deposited data

How the results depend on the processing

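The 9 genes kept the direction of HFD against chow in all settings with 2 exceptions: Cxcl9 was −0.16 to 0.40 with 1 array left out, and the dimmest Cxcl12 probe set gave −0.087. The count of the 9 genes called in HFD against chow was 3, with 0 without a filter, 5 in a fit of HFD and chow alone, 4 with the replicate block, and 1 to 4 with 1 array left out (1 without either chow array or HFD array 2). Over all genes the count was 909, with 575 after median centring, 174 without a filter, 1280 with the replicate block and 165 to 1611 with 1 array left out. Without a filter the adjusted p was 0.0543 for Cxcl12, 0.128 for Cxcl14 and 0.177 for Cxcl16, and without the variance trend that of Cxcl16 was 0.0730. The replicate block ended no call of the 9 genes and added that of Cxcl13. The labels name no shared source for the replicate numbers across groups. In the drug comparisons 0 of the 9 genes were called in any setting, and over all genes 4 (HFD+Tel against HFD), 6 (HFD+Can against HFD) and 6 (HFD+Tel against HFD+Can) were called without a filter and 0 with 1 array left out.

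The sign of uncalled drug differences near 0 turned with the setting. With quantile normalization, HFD+Can against HFD was 0.00038 for Cxcl10 and 0.0073 for Cxcl2, HFD+Tel against HFD was 0.069 for Cxcr4, and HFD+Tel against HFD+Can was 0.0015 for Cxcl14 and 0.045 for Cxcr4. With median centring, HFD+Can against HFD was 0.10 for Cxcl10, 0.065 for Cxcl12, 0.082 for Cxcl16 and 0.055 for Cxcl2, HFD+Tel against HFD was 0.27 for Cxcr4, and HFD+Tel against HFD+Can was 0.018 for Cxcl13, 0.042 for Cxcl14 and 0.11 for Cxcr4. Another Cxcl1 probe set gave −0.26 for HFD+Tel against HFD+Can. With 1 array left out, HFD+Tel against HFD ran from −1.01 to 0.057 for Cxcl14, −0.29 to 0.72 for Cxcl16 and −0.46 to 0.46 for Cxcr4. HFD+Can against HFD ran from −0.52 to 0.41 for Cxcl10, −0.24 to 0.071 for Cxcl12, −0.87 to 0.14 for Cxcl13, −0.88 to 0.082 for Cxcl14, −0.19 to 0.051 for Cxcl16, −0.55 to 0.36 for Cxcl2, −0.069 to 0.91 for Cxcl9 and −0.20 to 0.21 for Cxcr4. HFD+Tel against HFD+Can ran from −0.38 to 0.58 for Cxcl1, −0.60 to 0.40 for Cxcl13, −0.61 to 0.46 for Cxcl14, −0.22 to 0.79 for Cxcl16, −0.14 to 1.45 for Cxcl9 and −0.47 to 0.45 for Cxcr4. The causes were not tested. Cxcl2 and the dimmest Cxcl12 probe set lie close to the filter.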
